A study of Oryza sativa with 16 samples.

Results

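A set of 2556 probes that the array annotation marks as specific (SPEC) to 1 full-length cDNA (FL-cDNA) clone was examined, taking the FL-cDNA loci that carry exactly 1 such probe, of 20419 FL-cDNA loci in all. The names of these probes end in _S and a number, and they are called S probes here. Of the 83040 different probes on the arrays, 4084 were S probes, and the remaining 1528 of them lay in 717 loci with several. Each S probe was compared with the probe of its locus that the annotation marks as common (COMM), whose name ends in _C, called the C probe here. A C probe was present for 2548 of the 2556 loci, and the other 8 are described at the end. The files do not explain the words specific and common beyond these marks, and the base sequences of the probes are not given in the files used here, so that the part of the transcript each probe covers is not known.

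As background, a gene can give rise to several transcripts through alternative promoters, alternative splicing or alternative ends, and FL-cDNA clones capture single such transcripts from the cap site to the poly(A) tail. A probe placed in a stretch shared by all transcripts of a locus reads their sum, and a probe in a stretch found in a single one of them reads that transcript alone. When both probes follow the same transcripts, their ratios between samples are equal whatever their binding strength, and a difference between these ratios means that the probes read different RNA mixtures or respond to signal differently. Levels of different probes are not comparable in the same way, because each oligonucleotide binds its target with its own strength.

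Signals came from 16 2-color arrays of 60-mer probes. Root, panicle and callus of Nipponbare (a japonica cultivar of rice) and shoot of IR64 (an indica cultivar) were each hybridized together with Nipponbare shoot, on 2 array sets and in 2 replicates, so that every probe was read in 2 hybridizations for each of the 4 comparisons and in 8 for Nipponbare shoot. By their labels both kinds of shoot and the roots were grown for 10 days. The callus, a mass of dedifferentiated cells in culture, was grown for 28 days by its labels. Panicles, the heads that bear the flowers, were taken in the field by their labels, and at the late-boot stage according to the methods of the study. The methods of the study give the shoots another age than the labels. The description of 1 callus array, replicate 1 on array set 1, names a comparison of the cultivars, whereas its title names callus, and it was used as callus. The RNA was pooled from several plants according to the methods of the study, and nothing in the labels says that the replicates were separate plants, so p-values measure the spread between these hybridizations, which may be technical. The dyes were exchanged between the replicates, Cy3 marking the tissue in replicate 1 and the shoot in replicate 2, so that replicate and dye cannot be told apart. Both callus replicates used the same shoot extract, whereas the other comparisons used a different extract in each replicate. Shoot RNA was prepared with another method than that of root, panicle and callus, and each comparison was scanned on 1 day of its own. According to the methods of the study, shoots grew in pots in a greenhouse and roots in hydroculture in an incubator. Callus grew on a culture medium. None of these can be told apart from the tissue. The probes were designed on Nipponbare sequence, and in the IR64 ratios a difference in sequence and a difference in RNA level cannot be told apart. No table used here names genes for the loci (0 of 5112 clone and locus identifiers matched), so the tissues were not checked against marker genes and loci are given by identifier.

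The S probes were spread over all 12 chromosomes. They marked between 9.49% (chromosome 11) and 14.0% (chromosome 3) of the FL-cDNA loci of a chromosome, and 12.5% of all FL-cDNA loci. The strand letter was F in 1259 loci and R in 1297. The clone behind an S probe came from a green shoot library in 825 loci, a panicle library in 670 and a callus library in 555, as far as the start of the clone name shows, and from a clone not paired with a library in 506. The S and C probe lay on the same array set in 1232 loci and on different sets in 1316.

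S probes gave lower signal intensities than the C probes of the same loci in every sample. With each channel scaled to a median of 1000 over all probes and capped at 100000, the median S intensity was 983 in root, 859.9 in panicle, 986 in callus, 901 in IR64 shoot and 895 in Nipponbare shoot. The median C intensity was 4530.0, 4855, 4982, 3119 and 3743 in the same order. S probes as a group thus sat close to the array median, and C probes well above it. Locus by locus, the median log2 of the S over the C intensity was -2.24 ± 0.09 in root, -2.53 ± 0.05 in panicle, -2.39 ± 0.10 in callus, -1.80 ± 0.11 in IR64 shoot and -2.07 ± 0.12 in Nipponbare shoot (SD between the values of replicate 1 alone and of replicate 2 alone, n = 2). The gap was 4.21-fold in Nipponbare shoot at the median. On the IR64 arrays themselves the medians of replicates 1 and 2 were -1.74 and -1.90 in IR64 shoot, against -1.79 and -1.89 in the Nipponbare shoot channel, so that the smaller gap was found in both channels of these arrays. On the panicle arrays they were -2.63 and -2.56 in panicle, against -2.21 and -2.24 in Nipponbare shoot. With normexp background correction followed by loess and Aquantile normalization, the same medians lay between -1.77 in panicle and -1.21 in IR64 shoot. No test was made on levels, since different probes were compared.

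The spread behind these medians was wide. In Nipponbare shoot the S probe was brighter than the C probe in 678 of 2548 loci (26.6%) and at least 4-fold brighter in 285, while the C probe was at least 4-fold brighter in 1298. In 485 loci the intensities of both probes lay within 2-fold of each other. Among the 2537 loci with all values in the 4 Nipponbare samples, the C probe was the brighter one in every sample in 1722 loci and the S probe in every sample in 405. In the other 410 loci (16.2%) the brighter probe differed between samples. Among all 2548 loci, missing values skipped, 104 had S over 2-fold above C in 1 sample and C over 2-fold above S in another. S probes were also less often well above background: 92.5% in both root hybridizations, against 98.8% of the C probes, and 77.9% against 93.3% in all 8 shoot hybridizations. An S probe was well above background in no shoot hybridization in 80 loci, and a C probe in 13.

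In root, S and C probes of a locus moved together in part. Ratios were taken as log2 of root over Nipponbare shoot on the same array and tested with limma, with Benjamini-Hochberg adjustment over all probes and a threshold of 0.05. Of the 2548 S probes with a C probe, 657 were higher and 575 lower in root than in shoot, against 1067 and 597 of their C probes, where 46.4% (23.2% higher and 23.2% lower) of all probes on the arrays were called. C probes of these loci were thus called more often than probes in general, and S probes about as often. Both probes were higher in 435 loci and both lower in 285, only the C probe was called in 772 and only the S probe in 340. The 2 probes were called in opposite directions in 172 loci, with S lower and C higher in 135 of them and S higher and C lower in 37. Here and below, joint calls of both probes (same, opposite or only 1 called) were not counted over the S probes of other loci. These counts therefore have no share to set beside them. Among the C probes of all 2548 loci, more were called higher than lower. The median log2 ratio was 0.06 for S and 0.35 for C probes, against -0.05 for all probes, and the median size of the ratio without its sign was 0.63 for S and 0.88 for C probes. Across loci the ratios of S and C correlated with Pearson r = 0.53 and Spearman rho = 0.45 (n = 2547 loci, which share arrays and are not independent). Between the replicates the ratios correlated with r = 0.88 for S and 0.97 for C probes, and with 0.89 over all probes.

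The difference between the S and the C ratio was tested directly, in 1 limma fit over all 4061 S probes with a C probe, loci with several S probes included. In root it passed the threshold in 1108 of 2547 loci (43.5%), close to the 43.1% of the whole fit. The S ratio was above the C ratio in 480 loci and below it in 628, where the whole fit had 18.9% above and 24.2% below. The difference exceeded 1 on the log2 scale in 1000 loci and lay within 0.5 in 855. Its median was -0.07, its median size 0.79, and the median standard error 0.28. Over all loci with values in both replicates, called or not, the difference had the same sign in both in 2150 of 2539 (84.7%). With only 1 root hybridization the count was 595 without replicate 1 and 578 without replicate 2.

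The largest positive differences in root came from loci whose C probe was very bright in shoot and far lower in root, while the S probe changed little or less. In R10-CHRv2-00388R on chromosome 10, whose S probe was made for the green shoot clone J013116M22, the S probe gave 1485 and 1784 in root, against 1711 and 1797 in Nipponbare shoot (replicates 1 and 2). Its C probe gave 1415 and 2500 in root, against 100000 and 100000 in Nipponbare shoot, where 100000 is the cap and the ratios use the uncapped signals. The S signals of root and shoot overlapped, and the C signals lay far apart, which gave a difference of 6.83 ± 0.29 (log2, ± SE; n = 2 here and below; limma adjusted p = 5.2e-05). R07-CHRv2-00594R on chromosome 7 had S signals of 4803 and 4855 in root, against 5641 and 4856 in Nipponbare shoot, and C signals of 1376 and 1493 in root, against 76438 and 100000 in Nipponbare shoot (difference 5.85 ± 0.30, adjusted p = 5.9e-05). In R06-CHRv2-00304R on chromosome 6 both probes fell in root, the S probe to 864 and 791 in root, against 2132 and 2922 in Nipponbare shoot, and the C probe to 2544 and 4520.4 in root, against 100000 and 100000 in Nipponbare shoot. The S probe fell by 1.56 on the log2 scale and the C probe fell by 7.37, so that the difference of 5.82 ± 0.43 stood between 2 called changes of the same direction.

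The largest negative differences were C probes that rose in root beside S probes that fell. In R04-CHRv2-00941R on chromosome 4, a callus library clone, the C probe gave 40191 and 55974 in root, against 1389.9 and 1639 in Nipponbare shoot, whereas the dim S probe gave 173 and 209 in root, against 390.0 and 404 in Nipponbare shoot (difference -6.03 ± 0.26, adjusted p = 5.2e-05). R10-CHRv2-00443R on chromosome 10, a panicle library clone, had S signals of 388 and 365 in root, against 6816 and 11553 in Nipponbare shoot, and C signals of 12139 and 14468 in root, against 6269 and 4383 in Nipponbare shoot. The S probe was below the array median in root and several-fold above it in shoot, and the C probe was higher in root in both replicates (difference -5.90 ± 0.61, adjusted p = 4.7e-04). In R01-CHRv2-01024F on chromosome 1 the C probe gave 8733 and 13126 in root, against 311 and 482 in Nipponbare shoot and the S probe 507 and 426 in root, against 1226 and 809 in Nipponbare shoot (difference -5.89 ± 0.44). Loci with opposite calls and both probes well above background were ranked, here and below, by the smaller of the 2 absolute log2 ratios. Some loci ranked lower, such as R04-CHRv2-00941R with a C ratio of 5.01, changed more on 1 side. R02-CHRv2-00543F and R01-CHRv2-00104F came first in root. R02-CHRv2-00543F on chromosome 2 had S ratios of -2.23 and -2.19 and C ratios of 3.48 and 3.10 in replicates 1 and 2 (difference -5.50 ± 0.24), and R01-CHRv2-00104F on chromosome 1 had S ratios of -1.85 and -2.08 and C ratios of 2.19 and 1.82 (difference -3.97 ± 0.19). In both loci the replicates differed by less than 0.5, well under the distance between the probes.

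In panicle, fewer S probes were higher than lower, whereas more of their C probes were higher. 505 S probes were higher and 652 lower in panicle than in shoot, against 956 and 606 C probes, where 47.2% (22.6% higher and 24.6% lower) of all probes were called. The pair was called in opposite directions in 185 loci, of which 149 had S lower and C higher. Both probes were higher in 304 loci and both lower in 305. The difference between the ratios passed the threshold in 1039 of 2540 loci (40.9%, against 40.4% of the whole fit). S was above C in 404 and below it in 635, against 16.7% and 23.8% of the whole fit. Its median was -0.13, and it exceeded 1 on the log2 scale in 976 loci. The S and C ratios correlated across loci with r = 0.49 (n = 2540). Between replicates r was 0.85 for S, 0.93 for C and 0.85 for all probes. With 1 panicle hybridization, 654 differences were called without replicate 1 and 671 without replicate 2.

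Of the 3 loci with the largest negative difference, R07-CHRv2-00499F on chromosome 7, a panicle library clone, had a C probe that was bright in panicle and not in the other tissues. Its C signals were 25889 and 23969.5 in panicle, against 1130.2 and 1052 in Nipponbare shoot, and its S signals 869 and 800 in panicle, against 1577 and 1488 in Nipponbare shoot (difference -5.39 ± 0.29, adjusted p = 9.6e-05). The S probe, although made for a clone of a panicle library, fell by 0.86 on the log2 scale in panicle (adjusted p = 0.0028). R10-CHRv2-00443R and R04-CHRv2-00941R, described for root, again had differences of -6.62 ± 0.61 and -5.88 ± 0.26. R10-CHRv2-00443R also led the loci with opposite calls, together with R01-CHRv2-00389F on chromosome 1, a callus library clone whose S probe was at the cap in shoot. In R01-CHRv2-00389F the S probe gave 26316 and 40763 in panicle, against 100000 and 100000 in Nipponbare shoot, and the C probe 10270.3 and 9053 in panicle, against 1491 and 1556 in Nipponbare shoot (difference -5.15 ± 0.30, adjusted p = 9.7e-05). The largest positive differences were 5.30 ± 0.30 in R07-CHRv2-00594R, 4.91 ± 0.31 in R02-CHRv2-00217R and 4.69 ± 0.29 in R10-CHRv2-00388R, all 3 with green shoot clones. In R02-CHRv2-00217R on chromosome 2 both probes fell in panicle, the S probe giving 349.8 and 277 in panicle, against 1410.2 and 1515 in Nipponbare shoot, and the C probe 1664 and 2443 in panicle, against 100000 and 100000 in Nipponbare shoot.

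Callus gave the most calls for both kinds of probe. 688 S probes were higher and 630 lower in callus than in shoot, against 1131 and 638 C probes, with 49.5% (24.9% higher and 24.6% lower) of all probes called. Both probes were higher in 499 loci and both lower in 360, and they were called in opposite directions in 168, 140 of them with S lower and C higher. The median log2 ratio was 0.02 for S and 0.39 for C probes. The median size was 0.67 for S and 1.07 for C probes, so the C probes of these loci moved further. The difference between the ratios was called in 1122 of 2546 loci (44.1%, against 44.1% of the whole fit). S was above C in 446 and below it in 676, against 17.8% and 26.3% of the whole fit. Across loci S and C ratios correlated with r = 0.56 (n = 2546). Between replicates r was 0.93 for S, 0.97 for C and 0.93 for all probes. With 1 callus hybridization, 596 differences were called without replicate 1 and 676 without replicate 2.

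R08-CHRv2-00637F on chromosome 8, a panicle library clone, held the third largest positive difference in callus, and its probes moved in opposite directions. The S probe gave 15628 and 15048 in callus, against 6198 and 7043 in Nipponbare shoot, and the C probe 2723 and 2482 in callus, against 61625 and 70131 in Nipponbare shoot. S was above shoot and C below it in both replicates, with S ratios of 1.39 and 1.15 and C ratios of -4.45 and -4.77 (difference 5.88 ± 0.20, adjusted p = 2.7e-05). The larger ones were again R10-CHRv2-00388R (6.60 ± 0.29) and R06-CHRv2-00304R (5.89 ± 0.43), whose C probes lost nearly all of their shoot signal. The largest negative difference was that of R01-CHRv2-00389F, with S signals of 17974 and 28511 in callus, against 100000 and 100000 in Nipponbare shoot, and C signals of 37582 and 37170 in callus, against 2652 and 2593 in Nipponbare shoot (difference -6.56 ± 0.30, adjusted p = 4.1e-05). The next negative differences came from C probes that rose from a dim shoot signal. In R05-CHRv2-00044F on chromosome 5 the C probe gave 21895 and 18902 in callus, against 454 and 465 in Nipponbare shoot, and the S probe 1246 and 656 in callus, against 2275 and 1413 in Nipponbare shoot (S ratio -0.93, adjusted p = 0.0202, difference -6.45 ± 0.29). In R03-CHRv2-00101R on chromosome 3 the C probe gave 13726 and 13305 in callus, against 381 and 422 in Nipponbare shoot, and the S probe 1225 and 1252 in callus, against 1703 and 2048 in Nipponbare shoot (S ratio -0.54, adjusted p = 0.0597, difference -5.66 ± 0.46). R12-CHRv2-00315F on chromosome 12, a callus library clone, came next to R01-CHRv2-00389F among the loci with opposite calls. Its S probe fell to 772 and 706 in callus, against 6309 and 4705 in Nipponbare shoot, and its C probe rose to 2069.7 and 2592 in callus, against 342 and 498 in Nipponbare shoot (difference -5.38 ± 0.37, adjusted p = 1.0e-04).

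Between IR64 and Nipponbare shoots few S probes differed, and more of them were lower than higher. 27 S probes were higher and 87 lower in IR64 shoot, against 87 and 165 of their C probes, where 7.13% (2.86% higher and 4.27% lower) of all probes were called. On the IR64 arrays alone limma called 0 S and 0 C probes, with 195 and 416 at an unadjusted p under 0.05, and without IR64 replicate 1 or 2 the calls of C probes were 141 and 125. In most called loci a single probe was called: only the C probe in 217 loci, only the S probe in 79 and both in 35. The difference between the ratios passed the threshold in 119 of 2548 loci (4.67%, against 4.75% of the whole fit). S was above C in 69 and below it in 50, against 2.71% and 2.04% of the whole fit. It lay within 0.5 in 1871 loci and exceeded 1 in 249. The difference had the same sign in both replicates in 1296 of 2451 loci (52.9%). The ratios repeated poorly between the replicates for S probes (r = 0.19) and for all probes (r = 0.25). For C probes r was 0.73. Across loci S and C ratios correlated with r = 0.30 (n = 2548). These calls rest on the estimate of spread shared with the other tissues: with only the IR64 arrays in the limma fit, 0 differences passed the threshold, 258 had an unadjusted p under 0.05, and the named loci below had adjusted p between 0.153 and 0.211. Without IR64 replicate 2 the count was 78, and with normexp and loess it was 200. By chromosome, the share of loci with a called IR64 difference was between 2.50% on chromosome 2 and 9.63% on chromosome 10, with 13 of 135 loci there, 9 of 102 on chromosome 11 and 11 of 126 on chromosome 12. The shares by chromosome were not tested.

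The 3 largest positive differences were C probes that were lower in IR64 beside S probes that were not called. In R10-CHRv2-00388R the C probe, so much lower in root and callus, was as low in IR64 shoot, with 1827 and 2982 in IR64 shoot, against 100000 and 100000 in Nipponbare shoot. Its S probe gave 1897 and 1712 in IR64 shoot, against 2139 and 2210.3 in Nipponbare shoot (difference 5.85 ± 0.29, adjusted p = 2.4e-04). R12-CHRv2-00238F on chromosome 12 had C signals of 1198 and 908 in IR64 shoot, against 21719.5 and 18523 in Nipponbare shoot, and S signals of 2320.4 and 2356 in IR64 shoot, against 1448 and 1056 in Nipponbare shoot (difference 5.20 ± 0.51, adjusted p = 0.0023). R12-CHRv2-00195F, also on chromosome 12, had C signals of 2597 and 4211 in IR64 shoot, against 38914 and 42827 in Nipponbare shoot, and low S signals of 211 and 344 in IR64 shoot, against 201 and 181 in Nipponbare shoot (difference 4.13 ± 0.21). In these 3 loci the C signals of IR64 and Nipponbare shoot did not overlap. The largest negative differences were S probes that were lower in IR64 beside C probes that were not called. R12-CHRv2-00315F had S signals of 218 and 241 in IR64 shoot, against 3710.4 and 3439 in Nipponbare shoot, and C signals of 352 and 314 in IR64 shoot, against 296 and 193 in Nipponbare shoot (difference -4.46 ± 0.37, adjusted p = 0.0011). R08-CHRv2-00651R on chromosome 8 had S signals of 444 and 478 in IR64 shoot, against 9344 and 8143 in Nipponbare shoot, with C ratios of -0.29 and -0.21 (difference -4.03 ± 0.19). The S probe of this locus also gave 765 and 899.7 in callus, against 13996 and 12144 in Nipponbare shoot, and 12973 and 13419.8 in panicle, against 9421 and 8166 in Nipponbare shoot, so that it was low in callus and not in panicle. R11-CHRv2-00164R on chromosome 11 had S signals of 532 and 294 in IR64 shoot, against 8044 and 10687 in Nipponbare shoot (difference -3.80 ± 0.40, adjusted p = 0.0029). Opposite calls were made in 2 loci, and R07-CHRv2-00270F on chromosome 7 was the one that met the signal rule for naming loci, with S ratios of -0.71 and -0.75 and C ratios of 1.03 and 0.97 (difference -1.73 ± 0.20, adjusted p = 0.0045).

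Whether the S minus C difference itself changed among root, panicle and callus was tested with limma's moderated F test. It did in 298 of 2537 loci (11.7%, against 11.2% of the whole fit), and in 233 of the 1759 loci with both probes well above background throughout. In 135 of the called loci callus lay farthest from the median of the 3 tissues, in 92 panicle and in 71 root. This split was not made over the whole fit, and callus also had the largest share of all probes called (49.5%). With a term for the replicate the test called 466 loci, with normexp and loess 817, and without 1 hybridization between 88 (without callus replicate 1) and 295 (without an IR64 replicate).

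The 4 loci with the smallest p in this test had C ratios that spread further over the tissues than their S ratios. In R11-CHRv2-00025F on chromosome 11 the C signals were 209.8 and 254 in root, against 3310.0 and 4937 in Nipponbare shoot, 12709 and 15964 in panicle, against 5552 and 7304 in Nipponbare shoot, and 145 and 149.5 in callus, against 3890.1 and 3148 in Nipponbare shoot. Its S signals were 5436 and 3584 in root, against 10589 and 8816 in Nipponbare shoot, 5271 and 5946 in panicle, against 11812 and 11020 in Nipponbare shoot, and 4393 and 3981 in callus, against 10066 and 9112 in Nipponbare shoot. The C probe was thus above shoot in panicle and dim in root and callus, whereas the S probe was below shoot in all 3 by about the same amount, and the difference was 3.00 ± 0.21 in root, -2.19 ± 0.21 in panicle and 3.38 ± 0.21 in callus (F test adjusted p = 0.0011). R10-CHRv2-00191F on chromosome 10 had C ratios of 2.97 in root, -2.45 in panicle and -0.76 in callus beside S ratios of 0.34, -0.16 and 0.80 (adjusted p = 0.0013). In R10-CHRv2-00008R, also on chromosome 10 and a green shoot clone, the S ratio was -1.70, -2.01 and -1.65 in the same order of tissues, and the C ratio -0.21, 1.13 and -3.13 (adjusted p = 0.0013). R02-CHRv2-01151F on chromosome 2, a panicle library clone, had C signals of 2302 and 3568 in root, against 15568 and 24181 in Nipponbare shoot, 48276 and 55315 in panicle, against 22899.5 and 30601 in Nipponbare shoot, and 895 and 866 in callus, against 18462 and 16751 in Nipponbare shoot, with S signals between 301 and 486 in the 3 tissues (adjusted p = 0.0013). In IR64 shoot the S minus C difference was 0.31 ± 0.21 in R11-CHRv2-00025F, 1.63 ± 0.19 in R10-CHRv2-00191F, -0.01 ± 0.18 in R10-CHRv2-00008R and -0.15 ± 0.22 in R02-CHRv2-01151F, called only in R10-CHRv2-00191F.

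Several of the named loci had other values in the comparisons they were not named for, and the comparisons share shoot extracts. The C probe of R07-CHRv2-00594R was far lower in root, panicle and callus than in shoot. In IR64 shoot it gave 82320.4 and 94875, against 59598 and 70172 in Nipponbare shoot, and the difference of the locus was -0.36 ± 0.30 (limma adjusted p = 0.735). In R06-CHRv2-00304R the C probe gave 79659 and 100000 in panicle, against 100000 and 100000 in Nipponbare shoot, and the difference was 1.91 ± 0.43 in panicle, against 5.82 ± 0.43 in root and 5.89 ± 0.43 in callus. The C probe of this locus was thus far less low in panicle. R04-CHRv2-00941R, bright for C in root and panicle, had C signals of 3791 and 4330.1 in callus, against 1242 and 932 in Nipponbare shoot (difference -2.08 ± 0.26). In R10-CHRv2-00443R the S probe was as low in callus as in root and panicle, with 418 and 263 in callus, against 3659 and 7941 in Nipponbare shoot, whereas its C ratio there was -0.60 (adjusted p = 0.0648). R02-CHRv2-00543F, a callus library clone, had C ratios of 3.29 in root and 3.12 in panicle and of 0.09 in callus, beside S ratios of -2.21, -0.70 and -1.91.

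Some probes were well above background on 1 side of a comparison only. An S probe was so in root and not in shoot, in both replicates, in 100 loci, against 5 with the reverse. The same counts were 121 and 7 in panicle, 79 and 8 in callus and 3 and 11 in IR64. For C probes they were 42 and 3 in root, 35 and 0 in panicle, 27 and 1 in callus and 2 and 13 in IR64. More probes were above background only in the tissue than only in Nipponbare shoot in root, panicle and callus, and fewer in IR64. These counts were not made over all probes, so they have no share to set beside them. Over all probes, 85.8% to 95.5% were well above background in the tissue channels of root, panicle and callus arrays, against 80.5% to 89.2% in their shoot channels, and the part of this in the counts was not tested.

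The library of the clone, which the choice of members did not use, was set beside the tissue ratios. For callus library clones the S probe was higher in callus in 38.2% of loci and lower in 18.0%, against 24.0% and 26.6% for green shoot clones, where 24.9% of all probes were higher and 24.6% lower. The C probes of the same loci were higher in callus in 55.3% and 37.4%. Median S ratios in callus were 0.35 for callus library clones and -0.03 for green shoot clones, and median C ratios 0.73 and 0.10. Both probes were thus higher in callus for callus library clones, with the wider gap in the C probe. The median S minus C difference in callus was -0.19 for callus library clones, -0.10 for panicle library clones, 0.12 for green shoot clones and -0.35 for the clones not paired with a library, the lowest of the 4. For panicle library clones in panicle, 20.5% of S probes were higher and 24.4% lower, against 19.7% and 27.1% for green shoot clones. The C probes of panicle library clones were higher in 42.5% and lower in 21.4%, against 33.1% and 28.4% for green shoot clones. Over all probes in panicle, 22.6% were higher and 24.6% lower. The C probes of panicle library clones were also higher in 44.0% in root and 42.2% in callus. Those of callus library clones were higher in 46.8% in root and 38.7% in panicle. Of all probes, 23.2% were higher in root and 24.9% in callus. Shares above those of all probes were thus found in other tissues than that of the library too. The median difference of panicle library clones in panicle was -0.24, against -0.19 for callus library clones, -0.21 for clones not paired with a library and -0.01 for green shoot clones. These splits were made after earlier results were known and were not tested.

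Signal level moved with these results. When the loci were divided into 5 groups of equal size by S level, in the group with the dimmest S probes (mean intensity over the 5 samples of 47.1 to 279) the median size of the root S ratio was 0.52, and in the group with the brightest it was 0.77, whereas the C ratios of the same loci had 0.88 and 0.88. S and C ratios correlated with r = 0.37 in the dimmest and 0.63 in the brightest group. Calls of a root difference did not follow the S level in the same way, with 37.1% of loci in the dimmest, 47.3% in the middle and 42.0% in the brightest group. In 488 loci the mean S and C intensities lay within 2-fold. Of these, 46.3% were called in root, 46.1% in panicle, 50.4% in callus and 6.35% in IR64. The shares over all members were 43.5%, 40.9%, 44.1% and 4.67% in the same order. In root, S was called above C in 13.9% of these 488 loci and below it in 32.4%, against 18.8% and 24.7% of all members. With both probes well above background in both channels and replicates, 923 of 2038 loci were called in root, 819 of 1879 in panicle, 969 of 2158 in callus and 76 of 1881 in IR64. With both probes on 1 array set, 44.9% of loci were called in root, against 42.2% where they lay on different sets. The part of the level in the single calls was not tested.

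Another kind of probe gave another view of 162 of the loci. These probes have names that start with E5 and are also marked as common, with 1 to 9 of them per locus. In 55 such loci with a called difference in root, the median ratio of the E5 probes was closer to that of the C probe in 37 and closer to that of the S probe in the rest. The same held in 40 of 62 loci in panicle, 42 of 67 in callus and 11 of 15 in IR64. Another probe with the common mark was thus nearer to the C than to the S probe in most of these loci, but not in all.

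The 1513 S probes of loci with several such probes were measured in the same way. Their difference from the C probe was called in 42.4% in root, 39.6% in panicle, 44.1% in callus and 4.89% in IR64. The loci with 1 S probe had 43.5%, 40.9%, 44.1% and 4.67% in the same order, so that the shares of both kinds of locus were close. The C probes differed more between both kinds of locus, with a median root ratio of 0.35 in loci with 1 S probe and 0.14 in loci with several. No test was made of these shares, and S probes of 1 locus share their C probe.

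The brightest S probes in Nipponbare shoot were those of R01-CHRv2-00499R, R01-CHRv2-00768F and R06-CHRv2-00127F. In R06-CHRv2-00127F on chromosome 6, a callus library clone, the S probe was at the cap of 100000 in all 16 channels and marked as saturated in 5 of them, so that its levels have no order and its ratios are limited. Its C probe gave 7861 and 9476 in root, against 3169.7 and 4383 in Nipponbare shoot (C ratio 1.25, adjusted p = 0.0026). In R01-CHRv2-00768F on chromosome 1, also a callus library clone, the S probe was at the cap in all shoot channels and gave 66258 and 64099 in root and 59175 and 54504 in panicle, while its C probe gave 20164 and 28314 in root, against 6844 and 9068 in Nipponbare shoot. The S probe fell and the C probe rose in root in both replicates (difference -2.62 ± 0.20, adjusted p = 1.4e-04). R01-CHRv2-00499R, on chromosome 1 and a green shoot clone, had S signals of 18011 and 19629 in IR64 shoot, against 69469.8 and 84335 in Nipponbare shoot, and C signals of 24494 and 10512 in IR64 shoot, against 26325 and 12082 in Nipponbare shoot (difference -1.87 ± 0.28, adjusted p = 0.0182). Its first panicle spot was an outlier and was left out, so that its panicle value rests on 1 hybridization.

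The 8 loci without a C probe could be described only by their own ratios. Of their S probes, 5 were called in root, 5 in panicle, 7 in callus and 2 in IR64, where 46.4%, 47.2%, 49.5% and 7.13% of all probes were called in the same order. The largest changes were those of R08-CHRv2-00222R on chromosome 8, with ratios of -6.52 and -6.65 in root and -5.36 and -4.14 in callus, and of R07-CHRv2-00383R on chromosome 7, a green shoot clone, with -5.07 and -5.09 in root and -5.17 and -5.09 in callus. Both were at the cap in shoot at the median and were lower in root, panicle and callus in both replicates. In IR64, R05-CHRv2-00325R was higher (ratio 0.81 ± 0.11, adjusted p = 0.0113) and R06-CHRv2-00176F lower (-0.89 ± 0.16, adjusted p = 0.0221). These loci were named after their values were seen.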

How the data were processed

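Processed Cy3 and Cy5 signals, an intensity that the authors made with Agilent Feature Extraction by subtracting the background and normalizing the dyes within each array, were read from the deposited scanner files. The file headers name version 8.1 and the labels version 7.5 of the software. The mean and background intensities, the deposited log10 ratios of the authors and the flags (score of 0 or 1 per the file headers) for well above background (over 2.6 background SD), saturation and outliers were read too. The deposited files hold 44290 spots per array and 42034 probes other than controls. The number of hybridizations limits the precision.

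The log2 ratio of tissue over shoot on the same array was fitted with limma 3.58.1 in R 4.3.3, 1 fit per array set, with outlier spots left out, and the S minus C difference in 1 fit with 4 residual degrees of freedom shared by all tissues; both used Benjamini-Hochberg adjustment and a threshold of 0.05. On simulated root data the difference fit (4061 rows) recovered 30% of shifts of 1 and 78% of shifts of 2 on the log2 scale. There 200 rows were shifted and the noise was independent, unlike the real data, so these shares do not give the sensitivity of the counts. Levels were channel signals scaled to a median of 1000 and capped at 100000. Loci named are, per comparison, the 3 largest positive and 3 largest negative called differences and the 2 strongest opposite calls, with the same sign in both replicates and both probes well above background, then the 4 smallest p of the F test and the 3 brightest S probes in shoot. Members, lists and splits were chosen with earlier results of these data known. The alternatives were other normalizations, filters, the deposited ratios, a replicate term, fits per comparison and leaving out each replicate; a split by array set was added after the data were seen. Same-numbered replicates, which share a dye orientation and mostly a shoot extract, deviated together across comparisons (r from 0.23 to 0.47 over the differences) and were treated as paired in the replicate term.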

Additional observations from a re-analysis of the deposited data

Results flagged for a closer look

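The S minus C difference changed among root, panicle and callus, by limma's moderated F test, in 16 of 27 loci named in the text, most of which were chosen by this test or for a large difference in a tissue, so that the count follows from the choice; over all loci it was 298 of 2537 (11.7%, against 11.2% of the whole fit). The smallest adjusted p were 0.0011 in R11-CHRv2-00025F, 0.0013 in R10-CHRv2-00191F, 0.0013 in R10-CHRv2-00008R, 0.0013 in R02-CHRv2-01151F. The other such loci, chosen for a large difference in 1 or more comparisons, for opposite calls or for a bright S probe, had adjusted p of 0.0015 in R07-CHRv2-00499F, 0.0022 in R08-CHRv2-00637F, 0.0023 in R04-CHRv2-00941R, 0.0025 in R08-CHRv2-00651R, 0.0043 in R02-CHRv2-00543F, 0.0065 in R01-CHRv2-00389F, and of 0.0075 in R03-CHRv2-00101R, 0.013 in R06-CHRv2-00304R, 0.0233 in R07-CHRv2-00270F, 0.0259 in R01-CHRv2-00768F, 0.0293 in R10-CHRv2-00388R, 0.042 in R12-CHRv2-00195F. In R07-CHRv2-00499F the difference was -0.36 ± 0.29 in root, -5.39 ± 0.29 in panicle and 0.95 ± 0.29 in callus, beside C ratios of -0.02, 4.53 and -1.63. In R08-CHRv2-00651R it was -1.63 ± 0.19, -0.11 ± 0.19 and -3.34 ± 0.19 in the same order, beside S ratios of -1.49, 0.61 and -3.92. In R06-CHRv2-00304R it was 5.82 ± 0.43, 1.91 ± 0.43 and 5.89 ± 0.43; its C probe was marked as saturated in 3 shoot channels of replicate 1. No shoot level tested over the 8 hybridizations stood apart from the others (5 tests).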

How the results depend on the processing

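The counts of called differences kept within 1.5 times of 1108 in root, 1039 in panicle and 1122 in callus under other normalizations, filters and fits over the same loci, but not when one of the tissue's own replicates was left out; over all left-out replicates they were 578 to 1199, 654 to 1103 and 596 to 1160. The IR64 count of 119 became 200 with normexp and loess, 0 on the IR64 arrays alone, where 258 had an unadjusted p under 0.05, and 78 to 100 with a replicate left out. The F test count of 298 became 817 with normexp and loess, 466 with the replicate block and 88 to 295 with a replicate left out, the lower counts being 128 and 114 without root replicate 1 or 2, 194 without panicle replicate 2 and 88 and 96 without callus replicate 1 or 2. On the IR64 arrays alone limma also called 0 S and 0 C probes, with 195 and 416 at an unadjusted p under 0.05. Leaving out a replicate, the calls of all S probes (1237 in root, 1162 in panicle, 1325 in callus and 116 in IR64) became 715 to 1266, 807 to 1202, 798 to 1344 and 82 to 115, with the lowest counts in root and callus without one of their own replicates, and the IR64 calls of C probes (252) became 125 to 213, over 1.5 times fewer without a root or an IR64 replicate. Fewer hybridizations in the fit leave fewer degrees of freedom, and the lone hybridization is then assumed to vary like the others; the cause of the other shifts was not tested. The median log2 S over C level moved under normexp, loess and Aquantile to -1.60 in root, -1.77 in panicle, -1.69 in callus, -1.21 in IR64 shoot and -1.37 in Nipponbare shoot. Restricted to probes well above background, it was -2.47 in panicle and -1.87 in Nipponbare shoot. With 1 replicate left out it was -2.33 to -2.21 in root, -2.63 to -2.56 in panicle, -2.47 to -2.33 in callus, -1.90 to -1.74 in IR64 shoot and -2.20 to -2.03 in Nipponbare shoot. None of the 33 tests of named loci changed direction in 502 refits, and 7 lost the call, all in IR64 on its own arrays. These loci were named for large differences, mostly with the same sign in both replicates, and the F tests have no direction. The lack of reversals therefore largely follows from the choice. The replicate block moved no other count by over 1.5 times. Both probes on 1 array set, added later, gave 564 of 1232 called in root, and the limit of dim probes is their signal over background, with 1985 of 2548 S probes well above it in all shoot hybridizations.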
